A study of Zea mays with 12 samples.

Results

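The replication timing map of maize chromosome 2 was described from 2376 of the 20613 timing segments deposited for the 10 chromosomes of the inbred line B73. The members were all segments placed on chromosome 2, whatever their class. The chromosome was 243.7 Mb long as the file covers it, and 239.3 Mb of it carried a class. The classes were ES (362 segments), ESMS (673), MS (678), MSLS (429) and LS (234). The file does not define them; ES, MS and LS are taken to stand for early, mid and late S phase, and ESMS and MSLS for mixes of neighbouring stages.

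The map came from growing root tips. B73 seedlings, 3 days old and raised at 28 C, were given 25 µM EdU, a thymidine analogue that marks newly made DNA, for 20 min, followed by 100 µM thymidine. Nuclei from the terminal 1 mm of the roots were sorted to give a G1 group and 3 S-phase groups (early, mid and late), with 3 biological replicates of each and 12 libraries in all. EdU-labelled DNA of the S-phase groups was immunoprecipitated, and G1 DNA sequenced without immunoprecipitation was the reference. All groups shared genotype, growth and labelling. A whole root tip holds several cell types, so the map is an average over them.

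The 12 libraries are represented by 1 segmentation without library columns. No spread between replicates can be given for any share, length or boundary below, and the depth behind each class is unknown. The error used is the spread over the other 9 chromosomes, given as mean ± SD (n = 9). Chromosomes are parts of 1 genome and not biological replicates. With 1 chromosome set against 9, an exact two-sided permutation test cannot go below p = 0.1, so no difference of chromosome 2 from the others can pass 0.05. Ranks among the 10 chromosomes are given as descriptions.

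Replication of a plant chromosome starts at many origins that fire at different times in S phase. Gene-rich, open chromatin is generally copied early, and the repeat-rich heterochromatin around centromeres is generally copied late. In maize the chromosome arms carry most of the genes, and retrotransposons fill much of the sequence between them.

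Chromosome 2 was close to the middle of the 10 chromosomes in its overall class shares. ES made up 28.5% of its classified sequence, against 27.5 ± 3.90% on the others, which ranged from 20.7% on chromosome 4 to 32.5% on chromosome 1. MS made up 32.4%, against 33.3 ± 2.57%. LS made up 21.4%, against 20.7 ± 4.07%, with a range from 14.5% on chromosome 1 to 26.8% on chromosome 7. The mixed classes ESMS and MSLS held 8.67% and 8.97%. The differences of ES (1.05 percentage points), MS (-0.868) and LS (0.625) were all below 1 SD of the other chromosomes. The exact two-sided permutation test of 1 chromosome against 9 gave p = 0.9 for ES, p = 1 for MS and p = 0.8 for LS, each 1 after Benjamini-Hochberg adjustment over 4 comparisons.

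Along the chromosome, the classes formed an early, middle, late, middle, early series, with an MS-led step inside the late interior and MS-led steps again near the far end. In 49 steps of 5 Mb (the last is shorter), ES was the most abundant class in 15, MS in 20 and LS in 14. The mixed classes led none. The first 30 Mb were led by ES, which held 70.5% of the sequence there. MS led from 30 to 75 Mb with 45.2%. LS led from 75 to 110 Mb with 58.8% and again from 115 to 150 Mb with 55.7%. MS led from 150 to 190 Mb with 52.0%, and ES from 190 to 225 Mb with 64.1%.

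**Figure D1:**
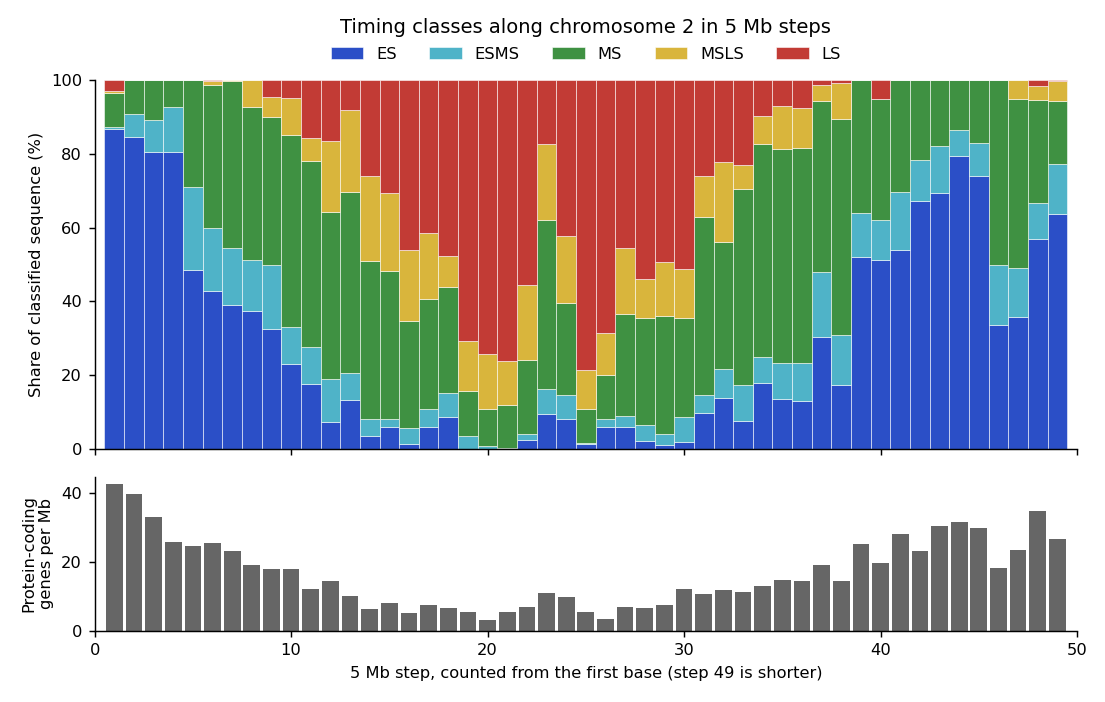
Share of classified sequence in each timing class (upper panel, %) and protein-coding genes per Mb (lower panel) in 49 successive steps of 5 Mb along chromosome 2. ES fills 86.8% of step 1 and LS 78.7% of step 25; steps 46 and 47 fall back to 33.7% and 35.8% ES, and genes are sparse where LS is high.

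The early end had the highest ES shares. The step from 0 to 5 Mb was 86.8% ES and 2.94% LS, the step from 5 to 10 Mb was 84.5% ES, and the steps to 15 and to 20 Mb were 80.5% and 80.4%. ES then dropped to 48.6% between 20 and 25 Mb, where ESMS reached its highest share of any step, 22.5%. From there ES declined over successive steps to 17.6% between 50 and 55 Mb. MSLS had its highest share, 22.9%, between 65 and 70 Mb. MS still led from 70 to 75 Mb, before LS took the lead.

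The late interior held 2 LS-led blocks with an MS-led step between them. In the first block, the steps between 90 and 105 Mb had no ES, and LS held 70.8%, 74.3% and 76.0% of them. The step from 110 to 115 Mb was 45.9% MS, 9.46% ES and 17.3% LS. LS then rose to 78.7% between 120 and 125 Mb, the highest value of the 49 steps, and was 68.6% in the next step. With steps shifted by 2.5 Mb, the highest LS share moved to the first block, at 81.3% between 92.5 and 97.5 Mb, so the order of both blocks depends on where the steps start. The maximum of ES stayed in the first step under each placement of the steps.

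The longest stretch without any ES ran from base 89450001 to base 107820000, or 18.4 Mb and 7.54% of the chromosome. LS held 71.0% of it, and 96 protein-coding genes lay in it, or 5.23 per Mb. Counted in Mb, the longest such stretch was shorter on each of the other 9 chromosomes, at 10.02 ± 2.25 Mb. Their range was from 6.36 Mb (chromosome 9) to 12.8 Mb (chromosome 4). The LS segment farthest from any ES segment was 8640 kb away, against at most 6140 kb on the others. This distance is not separate from the stretch without ES, whose length limits it. Typical distances ran the other way. The median LS segment of chromosome 2 lay 360 kb from the nearest ES, and only 1 of the other chromosomes had a shorter median. None of these values is scaled to chromosome length, in which chromosome 2 ranked 3 of 10. Relative to length, chromosome 10 (152.4 Mb) was ahead in both the stretch without ES (12.2 Mb) and the largest distance (5560 kb).

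The late blocks were not empty of early sequence outside that stretch. Between 75 and 110 Mb there were 15 ES segments that together covered 920 kb, with a median of 60 kb. They held 15 protein-coding genes, and 6 of the segments held none. Between 115 and 150 Mb there were 21 ES segments over 1330 kb, with 23 genes and 5 segments without one. ES islands inside the late blocks thus had 16.3 and 17.3 genes per Mb, against 5.74 and 7.40 per Mb over the blocks as wholes.

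The far end differed in order from the first. ES rose from 52.0% between 190 and 195 Mb to 79.4% between 215 and 220 Mb and 73.9% in the next step. It then fell to 33.7% between 225 and 230 Mb and 35.8% between 230 and 235 Mb, where MS led with 48.0% over both steps. ES led again from 235 Mb to the end with 59.9%. Gene density followed the same course, at 26.9 protein-coding genes per Mb from 190 to 225 Mb, 20.9 from 225 to 235 Mb and 31.4 beyond. The longest MS segment of the chromosome, 228140001 to 228830000 (690 kb, 12 protein-coding genes), lay in this dip.

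Set against the other chromosomes on a common scale of 20 bins, each 5% of the length, the first bins were ES-rich and the last ones ES-poor. In the first 5%, ES held 86.6%, second of 10, and in the second bin 68.3%, above the highest of the others (62.7%). In the last 5% it held 52.4%, below the lowest of the others (64.1%), whose mean was 80.5 ± 7.89%. MS (30.4%), ESMS (11.2%) and MSLS (5.27%) were all higher in that last bin than on any other chromosome. Shares of a bin are parts of one total, so these values are not separate from the low ES. The background of such bins was computed for ES and LS only. Over the first 10% of the length minus the last 10%, ES differed by 24.4 percentage points, and the difference was negative on each of the other 9 chromosomes (-33.7 ± 22.2 points). With 20% at each end, the same difference on chromosome 2 was -2.44 points. The highest ES shares of the far end lay between 205 and 225 Mb, before the ES dip.

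ES lay outside the range of the other 9 chromosomes in 3 of the 20 bins, 1 above and 2 below. LS did so in 1 bin, at 60 to 65% of the length, where 29.7% stood level with the next chromosome to 1 decimal. Over all 10 chromosomes, a chromosome lay outside the range of the other 9 in 20.0% of the bins for ES and 16.0% for LS, so the counts on chromosome 2 were no higher than the background. By the root mean square difference of class shares over the bins, the most similar chromosome was 1 (10.7 percentage points), followed by 5 (13.3) and 3 (13.4), and the least similar was 6 (20.3). Across the 20 bins, ES on chromosomes 1 and 2 correlated at r = 0.860 and LS at r = 0.855, as a description of neighbouring bins that are not independent.

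**Figure D2:**
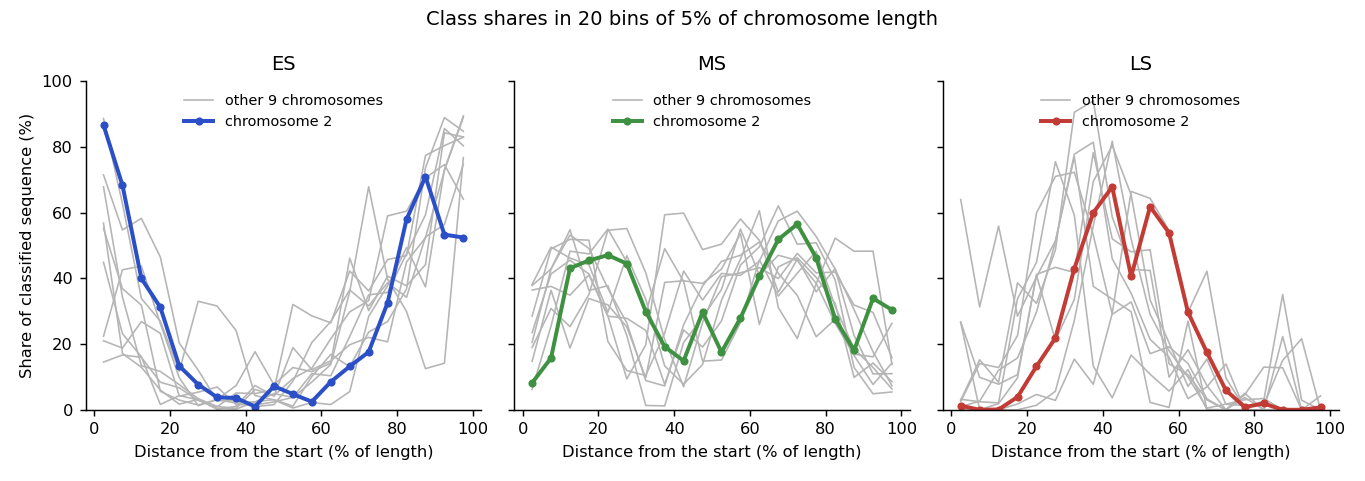
Share of classified sequence (%) in ES, MS and LS over 20 bins of 5% of chromosome length, for chromosome 2 (coloured) and each of the other 9 chromosomes (grey). Chromosome 2 starts at 86.6% ES and ends at 52.4%, under the lowest of the others in the last bin, and LS has a high on either side of a low just before the middle.

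With 20% taken at each end, the contrast between ends and interior was the widest of the 10 chromosomes. In these outer parts ES held 57.5% of the sequence, which was 47.8 percentage points above its 9.61% in the middle 60%. The other 9 gave 32.5 ± 9.65 points, from 12.04 (chromosome 4) to 42.9 (chromosome 9). LS held 0.972% of the outer parts and 34.7% of the middle, so the outer minus middle value was -33.8 points against -20.8 ± 8.22, with -28.2 on chromosome 3 as the next. This rank depended on the size of the ends. With 10% at each end the ES contrast was 45.4 points, second to chromosome 5 (57.7), and the LS contrast was -26.0 points, behind chromosome 7 (-27.9). With 30% it was 38.5 points for ES, level with chromosome 5 (38.4), and -42.7 for LS, against -33.4 on chromosome 5 as the next. On most other chromosomes the first 20% was much poorer in ES than the last (32.1 ± 14.7% against 61.7 ± 11.9%). Chromosome 2 had 56.2% and 58.7%. Only chromosome 1, at 57.7%, had more ES in its first 20%.

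**Figure D3:**
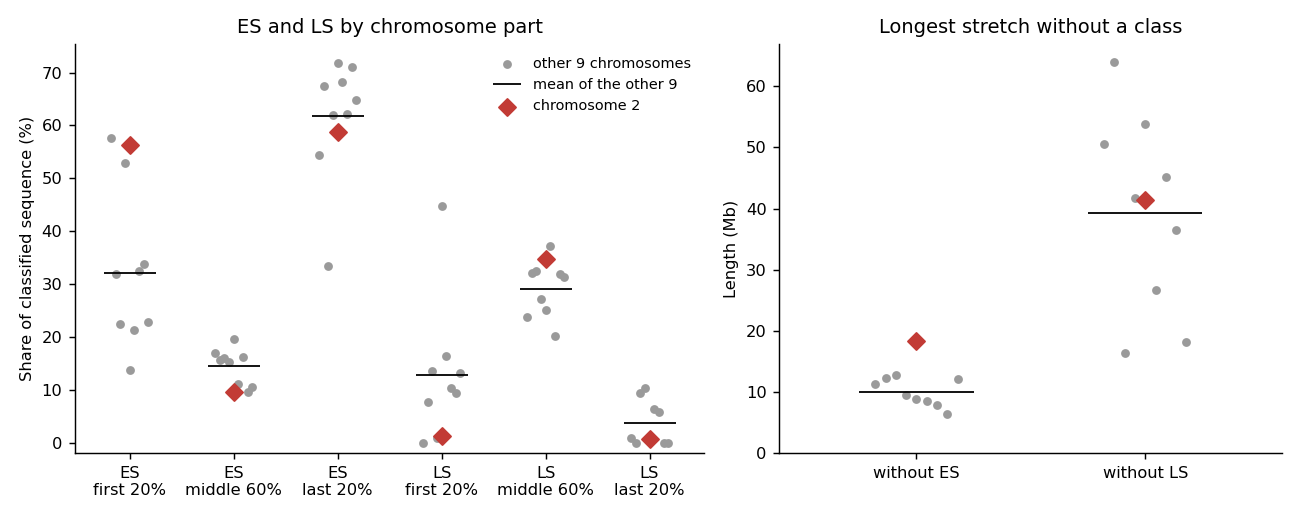
ES and LS share (%) in the first 20%, middle 60% and last 20% of each chromosome, and the longest stretch without ES or without LS (Mb). Diamonds are chromosome 2, grey points are the other 9 and lines their mean; chromosome 2 is high for ES in the first 20% and has the longest stretch without ES, 18.4 Mb.

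The LS segments lying wholly in the outer parts were few enough to list. They came to 14 of the 234 LS segments, 685 kb together, with 4 protein-coding genes and no segment over 130 kb. A longer LS segment, of 240 kb, crossed the limit of the first 20%. With its share counted, the first 20% held 0.615 Mb of LS with 3 protein-coding genes. The last 20% held 0.305 Mb with 3. A pair of places combined LS pieces with unclassified gaps. The first, between 410001 and 760000, alternated 4 LS pieces (140 kb) with 4 gaps (210 kb) and held no protein-coding gene. The other, between 195950001 and 196700000, alternated 3 LS pieces (220 kb) with 4 gaps (530 kb) and held 1. Between the last of these and base 237920000, LS was missing for 41.4 Mb, a length in the middle of the range of the other chromosomes (39.2 ± 16.3 Mb). ES held 57.8% of that stretch, and it had 1100 protein-coding genes. Unclassified gaps lay beside both groups of pieces, and their part in the class calls was not tested.

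The tips themselves were not ES. The chromosome opened with 70 kb of MS and 10 kb of ESMS before the first ES segment at base 80001. It ended with 160 kb of MS, 200 kb of MSLS from base 243470001 to base 243670000, and a last LS piece of 5.191 kb. In the last 1 Mb, MSLS held 20.0%, against 2.89 ± 3.71% on the others and at most 9.18%. No other chromosome opened or closed with an ES segment either.

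The longest single unit of the chromosome was an ES segment, followed by the longest LS segment (2.28 Mb). The longest ES segment ran from 2750001 to 6480000, or 3.73 Mb, and held 184 protein-coding genes, among them lg1, a regulator of ligule formation in the leaf, and lox6, a lipoxygenase. The next longest ES segment, 950001 to 2720000 (1.77 Mb, 86 genes), lay beside it, separated by 30 kb, and held the microRNA gene MIR393a. The next, 193970001 to 195430000 (1.46 Mb, 44 genes), held sbp23 of the squamosa promoter-binding protein family. The segment 16070001 to 17430000 (1.36 Mb, 38 genes) held MIR399e of the phosphate-responsive miR399 family. That from 239290001 to 240590000 (1.30 Mb, 48 genes) held the cytochrome P450 gene CYP92C6. Of 7 ES segments of at least 1 Mb, 6 lay wholly in the outer parts, and the one from 193970001 spanned the limit of the last 20%.

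The longest late segments carried far fewer genes over similar lengths. The longest LS segment, 102030001 to 104310000, spanned 2.28 Mb with 10 protein-coding genes. Among them were pht13 and pht12, named as phosphate transporters, and pht3, another such gene, lay in the nearby LS segment from 101780001 to 101940000 (pht3 was picked out after its class was seen). The next LS segments were 93240001 to 94700000 (1.46 Mb, 5 genes), 124870001 to 126180000 (1.31 Mb, 4 genes), 120840001 to 122000000 (1.16 Mb, 5 genes) and 123130001 to 124220000 (1.09 Mb, 2 genes). The LS segment with the most genes was shorter, 145740001 to 146580000 (840 kb), with 12 genes or 14.3 per Mb. No MS segment reached 1 Mb.

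Outside the far ends, ES came in short pieces. The longest ES segment wholly in the middle 60%, 181210001 to 181530000, was 320 kb long with 9 protein-coding genes, and the next, 157550001 to 157810000, was 260 kb long. The latter began where the longest unclassified gap of the chromosome ended, 157070001 to 157550000 (480 kb, 7 genes), which had LS on its other side. Unclassified sequence came to 115 gaps and 4.33 Mb, or 1.78% of the chromosome, with a median of 20 kb and 6 gaps of at least 100 kb. It held 75 protein-coding genes, which have no class here.

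The mixed classes had shorter segments than the single-stage ones. The median segment on chromosome 2 was 110 kb long in ES, 90 kb in MS and 100 kb in LS. ESMS and MSLS had medians of 20 kb and 40 kb. The ES, MS, ESMS and MSLS medians were within 10 kb of the mean of the other 9. The LS median stood at the low end of the others' range (100 to 160 kb), yet LS in segments of at least 300 kb held 65.8% of all LS, second of 10 (59.7 ± 3.55% on the others). The LS N50, the length at or above which segments hold at least 50% of the LS sequence, was 470 kb, against 404 ± 62.7 kb. Short pieces of 30 kb or less made up 9.40% of LS segments, the lowest of the 10 chromosomes (9.85 to 15.4%). In ES such pieces made up 12.7%, the highest of the 10 (7.39 to 12.4%).

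**Figure D4:**
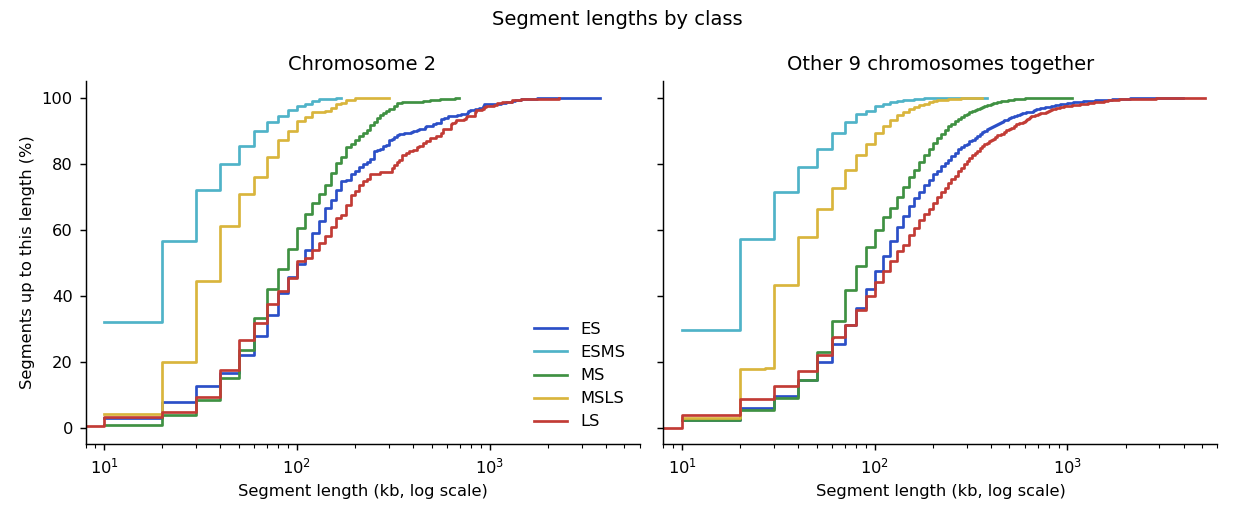
Cumulative share of segments (%) up to a given length (kb, log axis) by timing class, on chromosome 2 and on the other 9 chromosomes together. ESMS and MSLS segments are short (medians 20 and 40 kb on chromosome 2). On chromosome 2 the ES and LS curves extend past 1 Mb, and the MS curve ends at 690 kb.

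Of 2260 boundaries between touching segments, 97.1% joined neighbouring classes. A change through a mixed segment adds a boundary at each of its sides, so it weighs more in this share than a direct change. ESMS to MS was the most frequent kind with 763 (33.8%), followed by ES to ESMS with 576 (25.5%), MS to MSLS with 428 (18.9%) and MSLS to LS with 427 (18.9%), in either direction along the chromosome. ES met MS directly at 61 boundaries and MS met LS at 5. With each ESMS ramp counted once, direct contacts were 11.0% of the changes between ES and MS, against 12.6 ± 1.80% on the others. No ES segment touched an LS segment. Boundaries numbered 9.44 per Mb, against 9.32 ± 0.353 on the other chromosomes, a difference of 0.118 with an exact two-sided permutation p of 0.9 (adjusted p = 1).

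Boundaries were denser in the middle 60% (1510, or 10.4 per Mb) than in the outer parts (750, or 7.92 per Mb). The late boundaries were almost all interior. Of the MS to MSLS boundaries, 403 lay in the middle and 25 in the outer parts, and of the MSLS to LS boundaries, 413 and 14. ES to ESMS boundaries were more evenly divided, with 244 in the middle and 332 outside it.

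The mixed classes were mostly ramps between stages. Of 666 ESMS segments with a neighbour on both sides, 494 (74.2%) lay between an earlier and a later class, with a median of 20 kb. A further 132 stood as local early peaks with later classes on both sides (median 40 kb), and 40 were local late dips (median 55 kb). The longest ESMS segment, 29160001 to 29330000 (170 kb), was such a dip between ES segments. MSLS gave 281 ramps of 426 (66.0%, median 30 kb), 72 late dips and 73 early peaks. MS was different. Of 585 MS segments, 271 (46.3%, median 100 kb) were dips between earlier classes, 214 (36.6%) ramps and 100 (17.1%) peaks between later classes.

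Protein-coding genes lay mainly in early sequence. Of 4015 genes with a class, 2270 (56.5%) were in ES and 220 (5.48%) in LS. ES had 33.2 genes per Mb and ESMS 22.0. Density was 12.1 per Mb in MS, dropped to 6.10 in MSLS and was lowest in LS, at 4.30. ES was thus 7.73 times as gene-dense as LS, within the range of the other chromosomes (6.30 to 11.4). MSLS was the sparsest of the 10 chromosomes in its class, below a range of 6.32 to 7.73 per Mb, while ES, ESMS, MS and LS were each second highest. Median gene length also fell with class, from 3284 bp in ES to 2034 bp in MSLS and 1657 bp in LS.

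**Figure D5:**
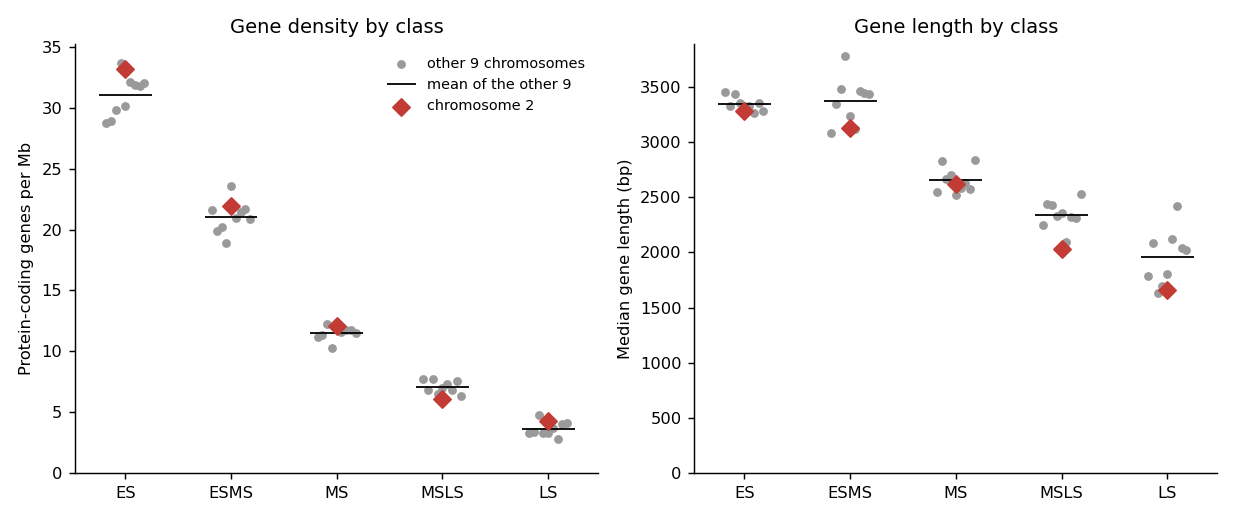
Protein-coding genes per Mb (left) and median length of protein-coding genes in bp (right) in each timing class, for chromosome 2 (diamonds), the other 9 chromosomes (grey points) and their mean (lines). Density on chromosome 2 drops from 33.2 per Mb in ES to 4.30 in LS, and the MSLS value of 6.10 is under all of the others.

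Over the 48 full steps, the number of protein-coding genes ran from 15 (95 to 100 Mb) to 213 (0 to 5 Mb) with a median of 72. It correlated with the ES share at Pearson r = 0.948 and Spearman rho = 0.946, and with the LS share at Pearson r = -0.771. These are descriptions over neighbouring steps of 1 chromosome, which share the course from end to interior. Within ES, density was also lower inside, at 25.1 genes per Mb in the middle 60% against 36.8 in the first 20% and 33.8 in the last. No protein-coding gene was placed in 42 of the 362 ES segments (11.6%), the second highest share of the 10 chromosomes (5.45 to 12.4% on the others). These 42 segments had a median length of 20 kb, and the longest was 197420001 to 197520000 (100 kb). Of the 234 LS segments, 128 (54.7%) held none, a share not computed for the other chromosomes.

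Classical maize genes of chromosome 2 were spread over the early and middle classes. Of 25 symbols searched, 10 were found on the chromosome with a class, and the lists had been drawn up with earlier results of these data known. Besides lg1 and lox6, ES held fl1, the floury locus that affects endosperm texture, in a segment of 150 kb, and ts1, a lipoxygenase needed for male flower development in the tassel, in a segment of 40 kb. ESMS held mop1, an RNA-dependent RNA polymerase of RNA-directed DNA methylation, and pbf1, a prolamin-box transcription factor of the endosperm. MS held hcf106, a component of protein import into thylakoids, whp1, a chalcone synthase of pollen pigmentation, and al1. The gene counted as al1 was matched through a synonym, and whether it is the classical locus is not certain. MSLS held mn1, the cell wall invertase of the endosperm known from miniature kernels. None of the 10 was in LS, which held 5.48% of all protein-coding genes of the chromosome, so a count of 0 among 10 does not set them apart.

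Neighbourhood varied among these genes more than class alone shows. The segment with lg1 and lox6 reached at least 1665 kb beyond them on each side, and mn1 lay 11.2 kb from the end of an MSLS segment of 80 kb with MS on both sides. The segment of hcf106 (MS, 120 kb) lay between MSLS segments. That of pbf1 (ESMS, 20 kb) joined MS to ES, and that of mop1 (ESMS, 100 kb) did the same. The segment of whp1 (MS, 70 kb) lay between ESMS segments in the dip near the far end.

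Among 32 genes named for 9 transcription factor families, 21 (65.6%) were in ES, 2 in ESMS, 8 in MS and 1, a NAC gene, in LS. The ES share over all protein-coding genes was 56.5%. The bHLH family had 4 of 6 in ES and the ERF family 4 of 5, while NAC had 3 of 7 in ES, 3 in MS and 1 in LS. These counts are too small to set families apart.

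The microRNA genes lay mostly in ES. Of 26 microRNA genes, 17 (65.4%) were in ES and none in LS. The rest were 5 in MS, 3 in ESMS and 1 in MSLS. Over genes of all types on the chromosome, 53.6% were in ES and 7.37% in LS, and the microRNA share in ES ran from 27.8% (chromosome 3) to 80.0% (chromosome 5) on the other chromosomes, so 65.4% lay within their range. The ES segment from 6510001 to 7440000 (930 kb) held 8 genes of the miR395 family, which acts in sulfate assimilation. Without that segment, 9 of 18 were in ES. The miR2118 family, known for triggering phased small RNAs in anthers, had 3 genes in the MS segment from 51080001 to 51370000. MIR156f, MIR11969 and MIR160f lay in ESMS. MIR169g, the only one in MSLS, lay in the segment from 67740001 to 67800000.

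Transfer RNA genes were in ES more often than on any other chromosome. Of 137 with a class, 103 (75.2%) were in ES, against 57.4 ± 7.28% on the other 9 and at most 66.0% (chromosome 10). The ES segment from 219870001 to 220040000 (170 kb) held 29 of them, of which 28 had the symbol TRNAI-AAU. Without that segment the share was 74 of 108, or 68.5%. With 1 gene counted per segment it was 63.3% of 79 segments, against 52.1 ± 5.60% and at most 59.5% on the others. No share over genes of all types was computed with 1 gene per segment. The order among chromosomes was computed for all transfer RNA genes and for 1 per segment, and chromosome 2 was highest in both. No p below 0.1 is possible for this rank.

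Ribosomal RNA genes of chromosome 2 lay in a single place. The 5S genes of maize are known to form an array on the long arm of this chromosome, although the gene table does not name the kind of ribosomal RNA. All 209 annotated genes lay within the MS-led dip near the far end, with 29 in the ES segment from 227560001 to 227620000, 8 in the ES segment from 227680001 to 227840000 and 172 in the unclassified gap between them. The class of most of the array is therefore not given by the map.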

How the data were processed

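Per the labels, DNA of 12 libraries (3 biological replicates of 4 sorted groups) was sequenced as 150 bp paired-end reads. Tools listed in the submitters' processing notes were Bowtie2 2.5.1, SAMtools 1.9 and Trimmomatic 0.39. Not given in the sources used here were the genome build, the segmentation software and thresholds, the treatment of repeats and how replicates were combined. The authors deposited 1 file that assigns a timing class to runs of 10 kb windows, per the file headers, with no signal or count, so depth is unknown.

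Shares, lengths, boundaries and gaps were computed from the segments as deposited. Genes came from the RefSeq table of Zm-B73-REFERENCE-NAM-5.0 and took the class at their midpoint. The coordinates were checked on the data: gene counts and ES correlated best within 10 kb of no offset on 10 of 10 chromosomes. No gene coordinates are printed. Local differences of build would move gene classes.

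Groups were taken from the labels. Chromosome 2 was set against the other 9 by exact two-sided permutation with Benjamini-Hochberg adjustment over 4 comparisons. The scripts were tested on simulated data. Computations used Python 3.11.15 with pandas 2.3.3, numpy 2.4.6 and scipy 1.17.1, and plots matplotlib 3.10.9. The genes named were the searched classical symbols found on the chromosome, named genes of the longest segments and microRNA genes. The members, lists and rules were chosen with earlier results of these data known. Alternatives covered the mixed classes, chromosome ends, steps, segment minimum and gene placement. Promoter composition was not analysed here.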

Additional observations from a re-analysis of the deposited data

How the results depend on the processing

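Of 72 alternatives, 60 kept their direction and moved by less than 1 SD over the chromosomes, 8 moved further and 4 turned the sign. The LS share difference from the other 9 chromosomes (0.625 percentage points) became -0.103 with mixed classes joined to the later stage, and ran from -0.151 to 1.39 when each other chromosome was left out. It was negative without chromosome 1 (-0.151) and without chromosome 8 (-0.0538). The ES difference between the ends, -2.44 points with 20% at each end, was 24.4 with 10%. The LS contrast between outer parts and middle went from -33.8 to -42.7 points with 30% at each end. The median ES length (110 kb) was 100 kb over runs of touching ES and ESMS segments, and 120 kb over ES segments of at least 50 kb. The median LS length (100 kb) was 150 kb over runs of touching MSLS and LS segments, and 150 kb over LS segments of at least 50 kb. A run can consist of a mixed class alone, so the medians over runs are not lengths of ES or LS domains with their flanks. The step with most LS started at 92.5 Mb instead of 120 Mb when steps were shifted by 2.5 Mb. The gene density difference between ES and LS (28.9 per Mb) was 25.8 with mixed classes joined. Both tRNA counts (without the largest cluster, and 1 gene per segment) and the microRNA count without its cluster were chosen after seeing the data. The tRNA share in ES moved from 75.2% to 63.3% with 1 gene per segment. No paired analysis was possible because the single segmentation has no values per library. For the same reason no library could be left out, and depth limits could not be stated. The alternatives on promoter composition were not run.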
